A study of Homo sapiens with 10 samples.

Results

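LINC genes are long intergenic non-coding RNA genes that carry a serial number in place of a name for what they do. The deposited tables of the interferon experiment listed 965 of them, and 41 reached 1 FPKM (fragments scaled to transcript length and to the library's total) or more in at least 3 of the 6 libraries. They come from 16044 long non-coding genes and 36546 genes in all, and each gene's transcripts had been summed first. The genes were chosen by their FPKM in these same 6 libraries, so their being expressed is not a finding.

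The libraries came from 3 esophageal squamous cell carcinoma lines, KYSE30, KYSE180 and KYSE450. Each line gave 1 untreated library, which received the phosphate-buffered saline vehicle, and 1 library from cells kept with interferon-β (IFN-β) at 1000 IU per ml for 72 h. No line and treatment had a second library, so p-values rest on the spread left among these 6 libraries after line and treatment are fitted. For 34 of the 41 genes that spread is one shared across genes and not the gene's own. For the rest the fit weighs the shared spread with the gene's own. It used 0.316 for LINC00472, whose own SD was 0.74, and 0.58 for LINC00842, whose own SD was 1.11. The same series has 4 libraries from KYSE30 and KYSE180 with lentiviral knockdown of the antisense RNA IRF1-AS or its vector control. None of the 41 could be matched in those tables (0 of 41), so they give no values here.

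Type I interferon binds a receptor on the cell surface and activates transcription factors that bind response elements at the promoters of interferon-stimulated genes. Long intergenic RNAs are transcribed by RNA polymerase II, and are generally lower and more restricted to particular cell types than messenger RNAs. Some act in the cytoplasm on RNA-binding proteins, some act on a neighbouring gene, and a few genes with a LINC name were later found to encode a small protein.

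Treatment was visible in every line. ISG15, a ubiquitin-like protein, was 45.5, 14.2 and 18.4 FPKM in untreated KYSE30, KYSE180 and KYSE450 and 1686, 809.4 and 1571 FPKM in the treated libraries of those lines. All 8 squamous epithelial markers reached 1 FPKM in every library, but their sum was 240 and 260 FPKM in the KYSE30 libraries against 4235 to 8216 in the other 4. KRT5, a basal keratin, was 2.91 and 1.37 FPKM in KYSE30 and at least 1199 FPKM elsewhere. All 5 leukocyte markers stayed under 1 FPKM in every library, and their sum ran from 0.23 to 0.88. Of the 6 fibroblast and endothelial markers 4 stayed under 1 FPKM in every library, and the sum of all 6 ran from 0.4 to 2.54. Of the 8 squamous markers 7 were lower in both KYSE30 libraries than in the other 4. The exception was SOX2, at 61.4 and 83.5 FPKM in KYSE30, 205 and 355 in KYSE180, and 49.1 and 55.5 in KYSE450. The part of these marker levels in any LINC gene's line difference was not tested.

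The promoters that the results below turn on are printed for the gene that passed the IFN-β test, for the LINC gene with the next smallest p, and for the one gene with an interferon response element core. Each is 300 bases of the gene's own strand from RefSeq (GRCh38.p14), from 250 bases before the RefSeq start to 50 after it, and capitals mark a match to the element core. LINC00472 lies on the minus strand at chr6:71420696-71420995, LINC01578 on the plus strand at chr15:92882593-92882892, and LINC00662 on the minus strand at chr19:27793891-27794190.
LINC00472: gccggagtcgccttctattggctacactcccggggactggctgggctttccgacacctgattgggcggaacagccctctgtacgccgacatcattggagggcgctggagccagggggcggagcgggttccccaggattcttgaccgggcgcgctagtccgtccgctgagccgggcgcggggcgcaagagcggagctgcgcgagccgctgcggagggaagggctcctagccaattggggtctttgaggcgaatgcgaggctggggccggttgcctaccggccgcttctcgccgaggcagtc
LINC01578: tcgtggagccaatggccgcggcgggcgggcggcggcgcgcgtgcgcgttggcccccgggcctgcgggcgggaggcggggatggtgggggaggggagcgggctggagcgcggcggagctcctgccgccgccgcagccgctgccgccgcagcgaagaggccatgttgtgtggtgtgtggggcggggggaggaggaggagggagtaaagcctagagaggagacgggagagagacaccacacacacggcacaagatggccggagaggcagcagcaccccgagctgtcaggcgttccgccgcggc
LINC00662: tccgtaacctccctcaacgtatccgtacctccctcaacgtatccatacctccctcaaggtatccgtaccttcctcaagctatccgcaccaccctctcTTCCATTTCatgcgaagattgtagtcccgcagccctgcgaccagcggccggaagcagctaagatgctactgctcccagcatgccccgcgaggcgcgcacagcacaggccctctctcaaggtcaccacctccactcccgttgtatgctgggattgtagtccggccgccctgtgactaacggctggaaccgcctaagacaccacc

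The core searched was GAAANNGAA on either strand, the shared letters of the interferon-stimulated response element. Of the 41 genes 31 had a RefSeq promoter, and 1 of the 31 (3.23%) held the core, against 8.11% of the 35116 promoters in the table. LINC00662 held it on the strand opposite to the printed one, with the first printed base of the match at -153 from the start.

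A STAT site, TTCNNNGAA, which reads the same on both strands, stood in 4 of the 31 (12.9%), those of LINC00152, LINC00857, LINC00998 and LINC01560, against 7.66% of all promoters. The LINC00998 promoter (minus strand, chr7:113118505-113118804) is shown because that gene is one of the highest of the 41, and capitals mark its STAT site.
LINC00998: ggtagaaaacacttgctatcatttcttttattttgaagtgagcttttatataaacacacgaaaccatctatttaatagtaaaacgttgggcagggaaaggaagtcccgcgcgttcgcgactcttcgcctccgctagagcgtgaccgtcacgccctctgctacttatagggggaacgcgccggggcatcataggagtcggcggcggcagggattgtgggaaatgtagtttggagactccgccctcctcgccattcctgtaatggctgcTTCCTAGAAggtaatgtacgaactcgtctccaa

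The median GC content of the 31 promoters was 67.7%, against 58.7% over all promoters, and the median number of CpG dinucleotides was 28 against 14. LINC01133 had the lowest GC content, 41.3%, with 1 CpG. Its promoter (plus strand, chr1:159960974-159961273) is shown as the exception, and it has neither motif.
LINC01133: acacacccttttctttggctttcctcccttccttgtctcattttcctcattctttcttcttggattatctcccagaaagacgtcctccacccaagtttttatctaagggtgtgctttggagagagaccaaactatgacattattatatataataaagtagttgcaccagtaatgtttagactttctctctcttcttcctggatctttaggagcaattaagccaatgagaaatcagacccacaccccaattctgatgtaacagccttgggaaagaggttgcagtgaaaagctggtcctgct

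A few of the genes held most of the signal. The mean over the 6 libraries ran from 0.843 to 69.2 FPKM with a median of 2.91. There were 8 genes with a mean of 10 FPKM or more and 21 under 3, and the 5 highest held 58.8% of the summed level. Of the 41, 26 reached 1 FPKM in all 6 libraries. No gene passed only through its 3 treated or only through its 3 untreated libraries (0 of each).

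LINC00657, now named NORAD, is a cytoplasmic RNA that is induced by DNA damage and binds the Pumilio proteins. It was highest, at 119 FPKM untreated and 104 treated in KYSE30, 58.8 and 52.3 in KYSE180, and 43.0 and 38.6 in KYSE450. Both KYSE30 libraries were above the other 4, and in each line the treated library was slightly lower. LINC00998, now SMIM30 and annotated as protein-coding, encodes a small membrane protein. It stood at 29.7 and 29.1 FPKM in KYSE30, 11.7 and 15.5 in KYSE180, and 61.4 and 55.0 in KYSE450, so the 3 lines did not overlap.

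LINC00152, now CYTOR, is an RNA described as raised in many carcinomas. It was 46.1 and 44.2 FPKM in KYSE30, 8.20 and 14.7 in KYSE180, and 33.9 and 38.5 in KYSE450, with both KYSE180 libraries below the other 4. LINC01578, now CHASERR, lies upstream of the chromatin remodeler gene CHD2 and is known to hold its expression down. It stood at 30.6 and 21.0 FPKM in KYSE30, 11.3 and 20.2 in KYSE180, and 8.46 and 36.5 in KYSE450, so the treated library was the lower one in KYSE30 and the higher one in the other lines. LINC00472, described as lowered in several carcinomas, was 98.3 and 43.4 FPKM in KYSE30, 3.32 and 0 in KYSE180, and 2.77 and 2.69 in KYSE450.

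**Figure D1:**
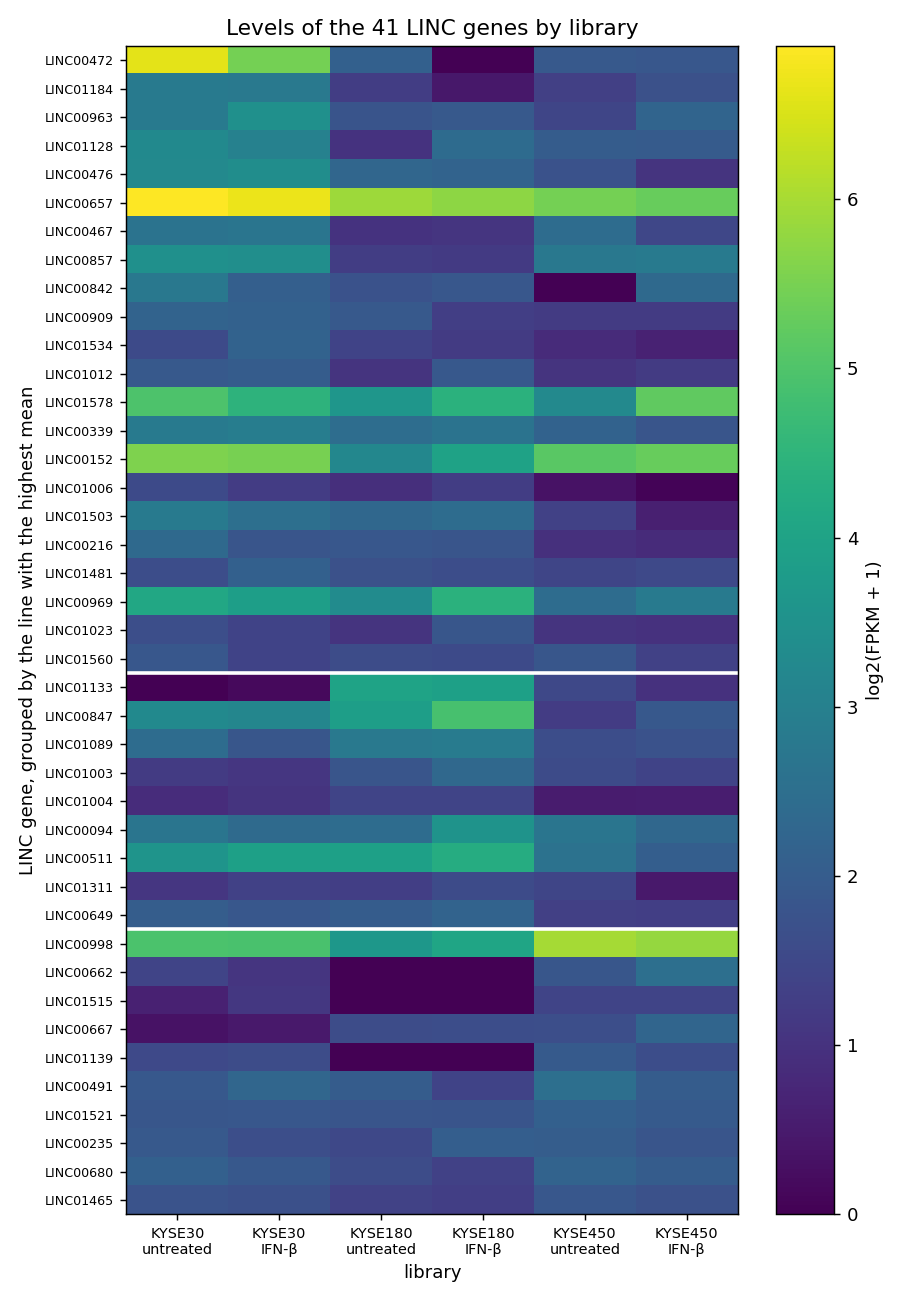
Levels of the 41 LINC genes as log2(FPKM + 1), one row per gene and one column per library; white lines separate the genes highest in KYSE30 (22), KYSE180 (9) and KYSE450 (10). Zero values are the darkest cells, as for LINC00662, LINC01139 and LINC01515 in both KYSE180 libraries.

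Most of the genes differed between the lines. A limma F test over the line terms, fitted on log2(FPKM + 1) across 12429 genes, called 29 of the 41 at an adjusted p under 0.05 (70.7%), against a background of 59.4% of all genes and 56.1% of the 806 long non-coding genes tested. The rule admits no gene that reaches 1 FPKM in 1 line only, which bears on these counts. When the long non-coding part was fitted alone, 7 of the 41 passed, namely LINC00472, LINC00662, LINC00847, LINC00857, LINC00998, LINC01133 and LINC01139, beside 9.31% of that part. With the libraries scaled to the long non-coding part, 17 passed, beside 42.5% of all genes.

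KYSE30 held the most of the highest levels. By the mean of each line's libraries, 22 genes were highest in KYSE30, 9 in KYSE180 and 10 in KYSE450. With scaling to the long non-coding part the counts were 18, 9 and 14. No background share is given for these counts, so they are not read as a trait of the LINC genes. Both KYSE30 libraries lay above the other 4 for 14 of the 41, where the background was 15.9% of all genes and 23.3% of the long non-coding part. The same held for KYSE180 in 6 of the 41, against 26.5% of all genes and 15.1% of the long non-coding part. For KYSE450 it held in 6, against 15.2% and 6.95%. Against KYSE30, 13 genes were lower in KYSE180 (14.4% of all genes, 21.5% of the long non-coding part) and 4 higher (24.2% and 14.3%). In KYSE450 16 were lower (18% of all genes, 30.1% of the long non-coding part) and 4 higher (19.3% and 8.56%). The long non-coding part was thus also lower more often than higher in both lines. With scaling to the long non-coding part the counts of the 41 became 9 lower and 3 higher in KYSE180, and 5 lower and 5 higher in KYSE450. Between KYSE450 and KYSE180, 8 genes were higher in KYSE450 (16.2% of all genes, 10.9% of the long non-coding part) and 11 lower (25.2% and 27.2%). Of the 41, 10 differed between their highest and their next line (24.4%), against 27.1% of all genes and 23.8% of the long non-coding part.

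LINC00472 had the widest distance between lines. Its KYSE450 level was below its KYSE30 level by a log2 difference of -4.15 ± 0.32 (SE, 2 libraries a line; limma, adjusted p = 1.27e-36), and both KYSE30 libraries were above the other 4. With a pseudocount of 0.1 in place of 1 the difference was -4.53 with an adjusted p of 0.241. Its own residual SD, 0.74, was above the 0.316 that the fit shared across genes.

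LINC01184, now SLC12A2-DT, is transcribed away from SLC12A2, the gene of a sodium, potassium and chloride cotransporter, with starts 594 bases apart. It was 6.13 and 5.87 FPKM in KYSE30, 1.37 and 0.36 in KYSE180, and 1.49 and 2.26 in KYSE450. Both KYSE30 libraries were above the rest, and KYSE450 was lower than KYSE30 by a log2 difference of -1.30 ± 0.30 (limma, adjusted p = 0.000114). The difference was -0.86 with an adjusted p of 0.0865 under scaling to the long non-coding part.

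LINC00963 was 6.09 and 10.1 FPKM in KYSE30, 2.46 and 2.80 in KYSE180, and 1.70 and 3.70 in KYSE450. Both KYSE30 libraries again lay above the rest, and the log2 difference of KYSE180 from KYSE30 was -1.29 ± 0.31 (limma, adjusted p = 0.000224). LINC01128 was 8.61 and 7.24 FPKM in KYSE30, 1.02 and 4.31 in KYSE180, and 3.03 and 2.98 in KYSE450. Its log2 difference of KYSE450 from KYSE30 was -1.15 ± 0.31 (limma, adjusted p = 0.00115), and it did not pass under either scaling (adjusted p = 0.0848 over all genes and 0.233 over the long non-coding part). LINC00476, now ERCC6L2-AS1, was 8.48 and 9.40 FPKM in KYSE30, 3.82 and 3.61 in KYSE180, and 2.35 and 1.06 in KYSE450, so no 2 lines overlapped. Its KYSE180 level was lower than KYSE30 by a log2 difference of -1.07 ± 0.31 (limma, adjusted p = 0.00256), and under scaling to the long non-coding part the difference was -0.96 and did not pass (adjusted p = 0.11).

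In KYSE180 the widest distance to the next line belonged to LINC01133. The RNA, which has been studied in several carcinomas, was listed at 0 and at 0.12 FPKM in KYSE30, at 15.1 and 14.1 in KYSE180, and at 1.83 and 0.99 in KYSE450. Both KYSE180 libraries stood above the rest, and the log2 difference of KYSE180 from KYSE450 was 2.72 ± 0.30 (limma, adjusted p = 1.27e-17).

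LINC00847 followed, at 8.76 and 8.04 FPKM in KYSE30, 13.5 and 28.6 in KYSE180, and 1.34 and 2.71 in KYSE450. No 2 lines overlapped, and KYSE180 was above KYSE30 by a log2 difference of 1.14 ± 0.32 (limma, adjusted p = 0.00142). LINC01089, LINC01003 and LINC01004 also had both KYSE180 libraries above the rest. Their distances to the next line were smaller, log2 differences of 0.69, 0.59 and 0.47, and did not pass (limma, adjusted p = 0.064, 0.0995 and 0.187).

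KYSE450 led for LINC00998 and LINC00662. The level of LINC00998 in KYSE450 was above KYSE30 by a log2 difference of 0.96 ± 0.28 (limma, adjusted p = 0.00324). LINC00662 was 1.65 and 1.08 FPKM in KYSE30, listed at 0 in both KYSE180 libraries, and 2.62 and 4.74 in KYSE450, with a log2 difference of KYSE450 from KYSE30 of 0.96 ± 0.29 (limma, adjusted p = 0.00378). LINC01515, LINC00667 and LINC01139 were also above the rest in both KYSE450 libraries, with log2 differences from the next line of 0.55, 0.35 and 0.22 that did not pass (limma, adjusted p = 0.107, 0.349 and 0.573). LINC01515 and LINC01139 were listed at 0 in both KYSE180 libraries, as LINC00662 was. LINC00667 was 0.27 and 0.39 FPKM in KYSE30, below the other 4 libraries. With the long non-coding part fitted alone, the differences given above for LINC01184, LINC00963, LINC01128, LINC00476, LINC00847, LINC00998 and LINC00662 did not pass (limma, adjusted p from 0.0902 to 0.193). With no filter on low values, those of LINC00847, LINC00662 and LINC01128 did not pass either (adjusted p = 0.0568, 0.0666 and 0.117).

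LINC00857 was 9.99 and 9.56 FPKM in KYSE30, 1.40 and 1.24 in KYSE180, and 5.81 and 6.06 in KYSE450. The lines did not overlap, and the log2 ratios of treated to untreated were small, at -0.06, -0.10 and 0.05. At the other end, LINC01521 was between 2.49 and 3.37 FPKM and LINC01560 between 1.54 and 2.70 in every library. Neither passed the F test (limma, adjusted p = 0.775 and 0.981).

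Genes restricted to 1 line fell outside the rule, since 2 libraries cannot meet a minimum of 3. Both KYSE30 libraries, and no other, reached 1 FPKM for 8 further LINC genes, the highest of which were LINC00958 at 15.7 and 23.9 FPKM and LINC01468 at 11.1 and 14.4. The same was so for 8 genes in KYSE180, led by LINC01564 at 10.5 and 8.70 FPKM, and for 1 in KYSE450, LINC01194 at 1.48 and 1.91. Just inside the rule were LINC01004, whose third-highest library was at 1.06 FPKM, and LINC01515 at 1.16, and just outside were LINC00672 at 0.921 and LINC00920 at 0.917. Of the 965 LINC genes 732 were listed at 0 in all 6 libraries and 877 never reached 1 FPKM.

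IFN-β changed few of these genes. In the fit with the line as a block 1 of the 41 was called, against a background of 1.91% of all genes and 3.23% of the long non-coding part. None was called higher (0 of 41, beside 1.55% of all genes and 2.36% of the long non-coding part). An unadjusted p under 0.05 (limma) was found for 4 of the 41 (9.76%), beside 7.6% of all genes and 15% of the long non-coding part. The median fitted log2 fold change was 0.00 for the 41, 0.07 for the long non-coding part and 0.12 for all genes, and 20 of the 41 were above 0 and 21 below. With scaling over all genes the median of all genes became -0.01 and that of the 41 became -0.10, with 15 above 0.

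**Figure D2:**
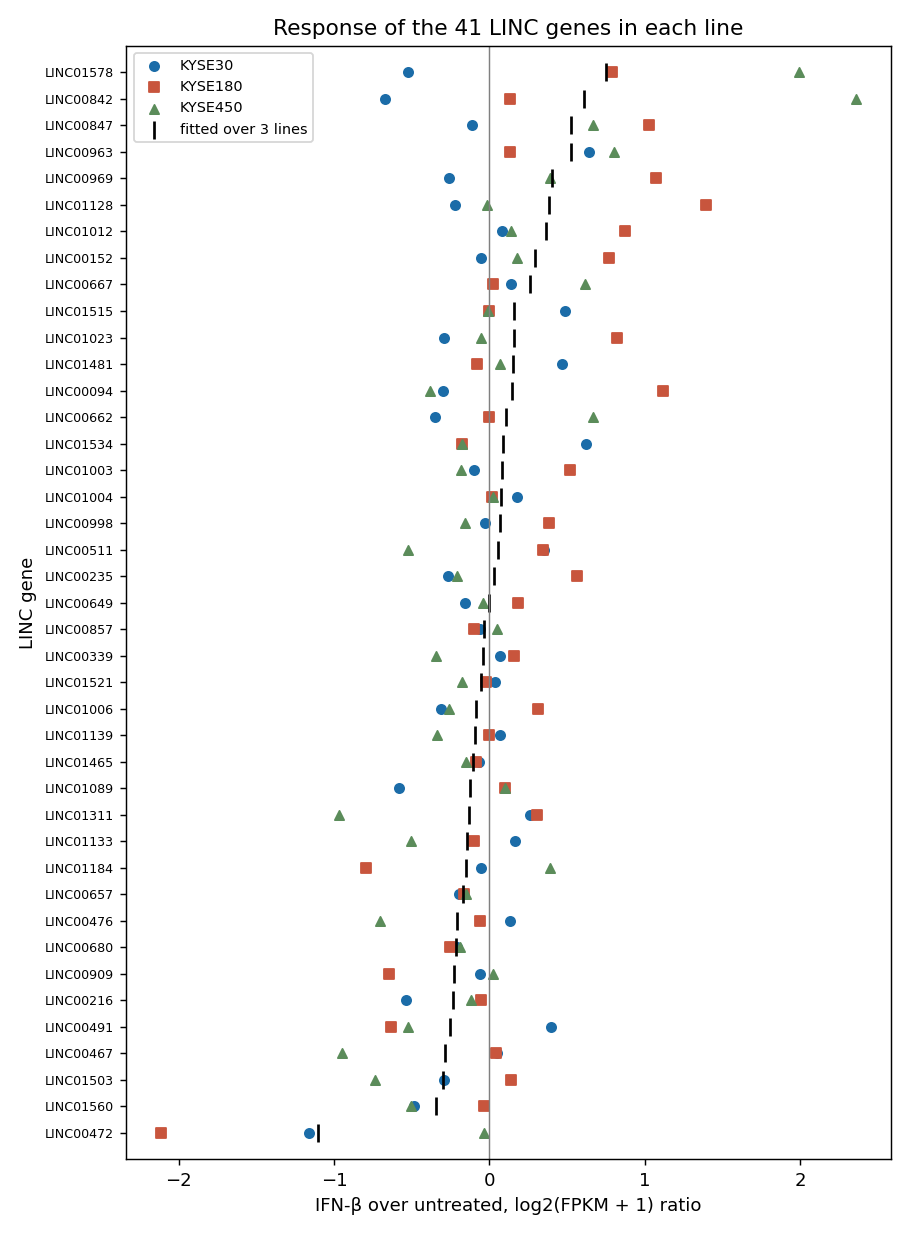
Treated over untreated level of each of the 41 LINC genes on the log2(FPKM + 1) scale, with 1 marker per line and a bar for the value fitted over 3 lines. LINC00472 at the bottom (-1.10) has the lowest fitted value and LINC01578 at the top (0.75) the highest, and 10 of the 41 genes have all 3 markers on one side of 0.

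The 3 lines had the same direction in 10 of the 41. A gene was higher after IFN-β in all 3 lines in 4 of the 41 (9.76%). The background was 23.4% of all genes and 14.1% of the long non-coding part. It was lower in all 3 in 6 of the 41 (14.6%), against 5.26% of all genes and 8.56% of that part. For the 41 the median log2 ratio in KYSE30 was -0.06, that in KYSE180 was 0.04 and that in KYSE450 was -0.12. The other long non-coding genes had medians of -0.06, 0.28 and 0.00, and the named-gene part, which is mostly protein-coding, of -0.01, -0.03 and 0.43. In KYSE450 the median of the named genes was thus above both long non-coding medians, and in KYSE180 that of the other long non-coding genes was above the rest.

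Changes of 2-fold or more in a single pair of libraries, which have no replicate, were counted where the pair's mean was 1 FPKM or more. In KYSE30 0 of 37 were higher (1.84% of all genes and 7.33% of the long non-coding part) and 1 lower (0.743% and 9.45%). KYSE180 had 6 of 37 higher (3.1% of all genes and 24.4% of the long non-coding part) and 1 lower (4.5% and 7.12%). For KYSE450 the counts were 4 of 37 higher (11.4% of all genes and 9.61% of the long non-coding part) and 4 lower (0.967% and 11.6%).

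LINC00472 was the gene called lower. Its level was lower by 1.16 in KYSE30, by 2.11 in KYSE180, where it was listed at 0 after treatment, and by 0.03 in KYSE450, all as log2(FPKM + 1). The fitted log2 fold change was -1.10 ± 0.26 (SE, 3 pairs; limma, adjusted p = 0.00173). The lines did not move alike, and this gene's own SD, 0.74, exceeded the SD the fit used for it, 0.316. The call was lost under 9 of the other settings tried, and leaving out any 1 line was enough to lose it. The log2 fold change was -1.07 without KYSE30, -0.60 without KYSE180 and -1.64 without KYSE450 (limma, adjusted p = 0.195, 0.975 and 0.202).

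The same locus also has an entry in the named-gene part, under its older symbol C6orf155. That entry was 9.40 FPKM untreated and 11.7 treated in KYSE30, 0.97 and 1.26 in KYSE180, and 1.60 and 3.13 in KYSE450. It was higher after IFN-β in all 3 lines, with a fitted log2 fold change of 0.39 ± 0.25 that did not pass (limma, adjusted p = 0.827). Both entries were highest in KYSE30. The fall of LINC00472 is thus not seen in the other entry of the same gene.

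One transcript carried the difference. ENST00000421704.5, of 451 bases, was 82.1 and 29.05 FPKM in KYSE30, 3.32 and 0 in KYSE180, and 2.59 and 2.13 in KYSE450. ENST00000602878.5 was 15.4 and 13.2 FPKM in KYSE30, 0 and 0 in KYSE180, and 0.165 and 0.313 in KYSE450. All 451 bases of the leading transcript lie in stretches of 25 bases that also occur in the 2958-base transcript ENST00000426635.6, which was at 0.667 FPKM or lower in every library. Reads from the shared stretch cannot be told apart by sequence. The first 300 bases of the leading transcript, from GENCODE 29, are printed to show that stretch, with no capitals because no base is particular to it.
ENST00000421704.5: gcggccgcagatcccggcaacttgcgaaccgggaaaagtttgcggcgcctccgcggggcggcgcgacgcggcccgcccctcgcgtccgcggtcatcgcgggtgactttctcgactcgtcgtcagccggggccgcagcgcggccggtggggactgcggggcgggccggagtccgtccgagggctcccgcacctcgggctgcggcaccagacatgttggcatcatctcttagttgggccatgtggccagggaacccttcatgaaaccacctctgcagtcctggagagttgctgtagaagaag

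LINC01578 came next by p. It was lower in KYSE30, with a log2 ratio of -0.52, and higher in KYSE180 (0.79) and KYSE450 (1.99), and the fitted value was 0.75 ± 0.25 (limma, adjusted p = 0.115). The fitted value was 1.39 without KYSE30, 0.73 without KYSE180 and 0.13 without KYSE450 (limma, adjusted p = 0.0363, 0.943 and 0.938). Its leading transcript, ENST00000556895.5 of 802 bases, was 18.4 and 11.6 FPKM in KYSE30, 3.85 and 11.3 in KYSE180, and 0.778 and 22.2 in KYSE450, and all 802 bases recur in the 2683-base transcript ENST00000557682.6, which was between 0.138 and 1.32 FPKM. In KYSE450 that transcript went from the smaller to the larger share of the gene's level.

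CHD2, which starts downstream of LINC01578 on the same strand with 488 bases between the gene bodies, was 24.7 and 26.5 FPKM in KYSE30, 36.4 and 40.5 in KYSE180, and 28.0 and 44.97 in KYSE450. It was higher after IFN-β in each line, by log2 ratios of 0.10, 0.15 and 0.67, and did not pass (fitted 0.30 ± 0.23, limma, adjusted p = 0.862). In KYSE180 and KYSE450 LINC01578 and CHD2 were thus both higher after treatment, and in KYSE30 LINC01578 was lower.

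**Figure D3:**
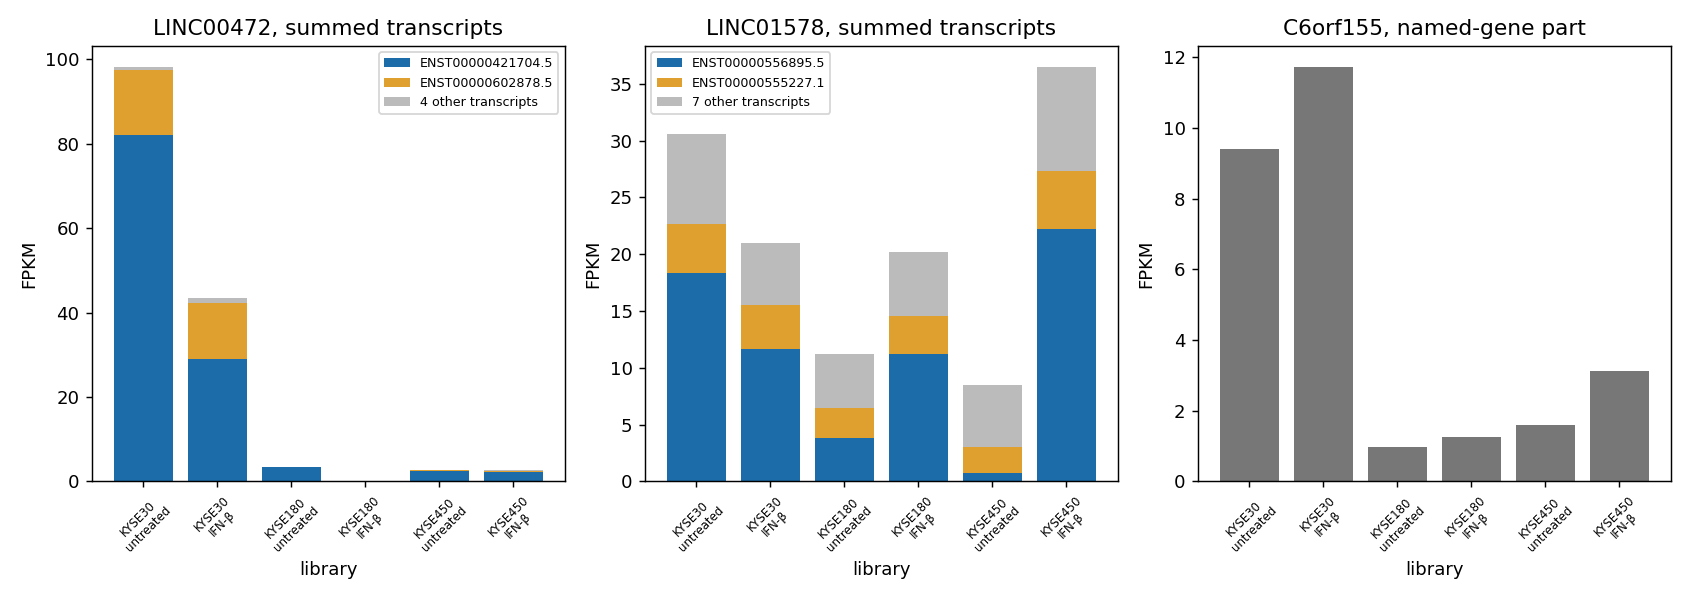
FPKM by library for LINC00472 and LINC01578, with the 2 leading transcripts and the sum of the others stacked, and for C6orf155, the entry of the LINC00472 locus in the named-gene part; each panel has its own axis from 0. LINC00472 is lower after IFN-β in KYSE30 in the left panel and C6orf155 is higher in the right one.

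The remaining genes with the smallest p in each direction did not pass. With the lines in the order KYSE30, KYSE180 and KYSE450, LINC00963 had ratios of 0.64, 0.13 and 0.80 and was higher in each, with a fitted value of 0.52 ± 0.26 (limma, adjusted p = 0.60). LINC00847 had ratios of -0.11, 1.03 and 0.66 (fitted 0.53 ± 0.26, limma, adjusted p = 0.606). The ratios of LINC00969, host of the microRNA miR-570, were -0.26, 1.07 and 0.39, and those of LINC01128 were -0.22, 1.39 and -0.02. In both, KYSE180 held the highest ratio.

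On the lower side, LINC01560 had log2 ratios of -0.49, -0.04 and -0.50 and was lower in all 3 lines. LINC01503, an RNA studied in squamous carcinomas, had ratios of -0.30, 0.14 and -0.74. LINC00467 had 0.05, 0.04 and -0.95, and LINC00491 had 0.40, -0.63 and -0.53. LINC00657 was lower in all 3 lines by small and like amounts, -0.20, -0.16 and -0.15, and LINC00680 by -0.21, -0.25 and -0.19. Their fitted values were -0.17 ± 0.21 and -0.22 ± 0.25 and neither passed.

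The genes were also read by what they are known for. Of 8 genes with a LINC name that are known to encode, or were reported to encode, a small protein, 4 were in the tables and 2 were members, LINC00998 and LINC00467. Both passed the line test, which called 59.4% of all genes and 70.7% of the 41, and neither was called for IFN-β. LINC00094, now BRD3OS, is also annotated as protein-coding and was not among the 8. Of 18 genes studied in squamous or other carcinomas, 17 were in the tables and 6 were members (LINC00152, LINC00511, LINC00662, LINC00472, LINC00963 and LINC01503). All 6 passed the line test, beside the same shares of 59.4% of all genes and 70.7% of the 41. For IFN-β 1 of the 6 was called (1.91% of all genes), LINC00472. LINC00511 was 10.9 and 14.1 FPKM in KYSE30, 14.2 and 18.3 in KYSE180, and 5.06 and 3.21 in KYSE450, with both KYSE450 libraries below the rest. Of 3 stress-linked genes all were in the tables and 1, LINC00657, was a member. The other 15 genes of the lists that were in the tables were no members. Among them LINC00958 reached 23.9 FPKM in KYSE30, and LINC00941 reached 2.60 FPKM in treated KYSE450 and 0.575 or less in every other library.

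For 9 of the 41 genes the level could be read a second time. LINC00094 (NCRNA00094), LINC00152 (NCRNA00152), LINC00235 (NCRNA00235), LINC00339 (HSPC157), LINC00467 (C1orf97), LINC00472 (C6orf155), LINC00476 (C9orf130), LINC01006 (C7orf13) and LINC01465 (C12orf61) are also listed in the named-gene part under the symbols in brackets. The line with the highest mean was the same in both entries for 8 of the 9, the exception being LINC00152. The direction after IFN-β was the same in 13 of 27 pairs of line and gene. LINC00152 was 46.1 and 44.2 FPKM in KYSE30 by 1 entry and 68.4 and 68.8 by the other, and in KYSE450 33.9 and 38.5 against 64.9 and 89.9. LINC00467 had a log2 ratio of -0.95 in KYSE450 in the long non-coding part and 0.42 in the named-gene part, and LINC00476 had -0.70 and 0.32. In KYSE450 the median ratio was 0.43 over the named-gene part and -0.12 over the 41. The part of that offset in the unlike directions was not tested. LINC00094 had 1.12 in KYSE180 in the first and -0.04 in the second. The leading line was thus mostly the same in both entries, and the direction of the response was the same in 13 of the 27 pairs.

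**Figure D4:**
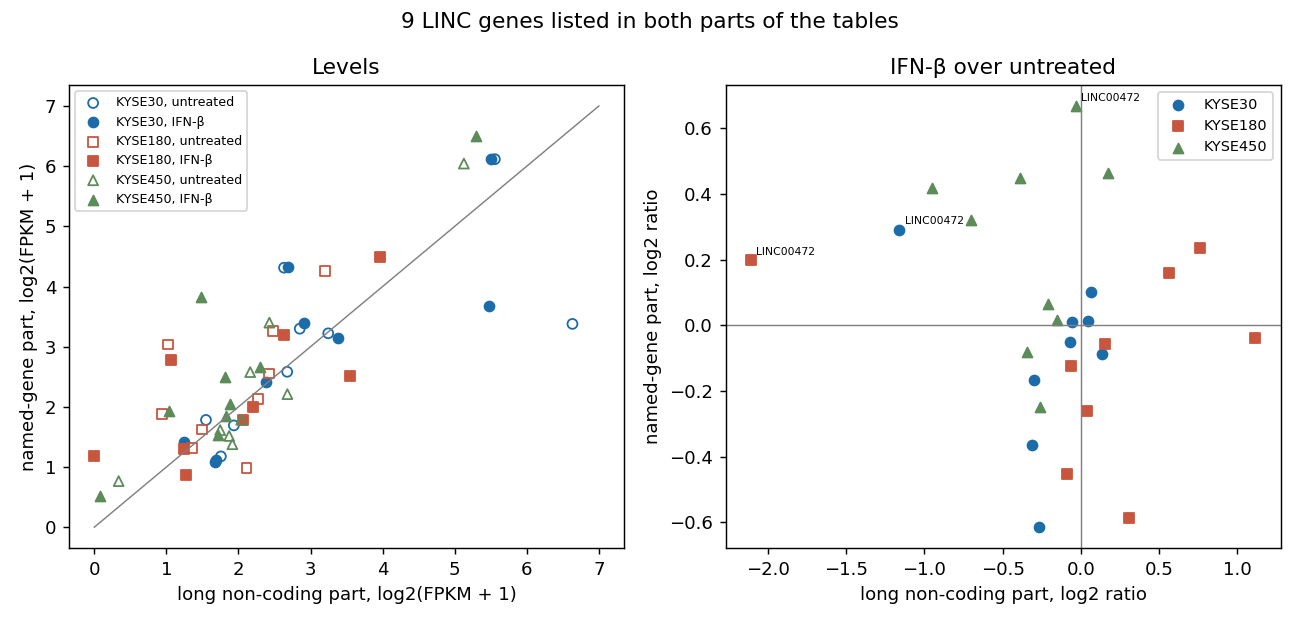
The 9 LINC genes listed in both parts of the tables. Left, level in each library in the named-gene part against the long non-coding part, as log2(FPKM + 1) with the line of equality; right, the IFN-β over untreated log2 ratios, where 13 of the 27 points have the same direction in both parts.

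Sums over transcripts stand behind every value above. The 41 genes had 397 transcripts, a median of 4 and at most 142 for LINC00969. Of the 35 genes with more than 1 transcript, 21 had the same leading transcript in all 6 libraries, 14 did not, and 29 had a transcript at 0 in some libraries and above 0 in others. LINC00216 was divided almost evenly, its leading transcript holding between 49.8% and 52.4% of the gene's level. The leading transcripts of 39 genes had a length in GENCODE 29, with a median of 1032 bases and a range of 436 to 5339.

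The genes lay on 19 chromosomes. In GENCODE 29, 40 had an entry, of which 28 were typed as lincRNA, 5 as processed transcript, 4 as antisense, 2 as protein-coding and 1 as a transcribed pseudogene. Of the 40, 12 (30%) overlapped a protein-coding gene despite the intergenic name, against 70.2% of the other long non-coding genes tested. Starts within 2000 bases of the neighbour's start on the opposite strand were found for 11 (27.5%), against 35.3%. Counting is not stated to use strand, so reads of overlapping genes on opposite strands cannot be told apart.

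The nearest coding genes were compared next. Of 31 genes whose nearest listed protein-coding gene was expressed, 15 (48.4%) were highest in the same line as that neighbour, against 52.9% for the other long non-coding genes tested. Over 93 pairs of line and gene, 49 (52.7%) moved in the same direction as the neighbour after IFN-β, against 54.6%. Of the 31 genes 5 had the neighbour's direction in all 3 lines, beside 104 of 633 other long non-coding genes. LINC01184 and SLC12A2, a pair picked after its values were seen, were among the 5. SLC12A2 was 23.6 and 20.8 FPKM in KYSE30, 4.88 and 3.20 in KYSE180, and 9.04 and 11.4 in KYSE450, so its order of lines and its 3 directions were those of LINC01184.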

How the data were processed

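Whole-transcriptome RNA-seq had been done on total RNA with standard Illumina libraries, per the labels' protocols. Per the file headers, the values the authors deposited are FPKM, with a table for each library. TopHat, HTSeq and hg38 are named in the submitters' processing notes, without versions or roles. For annotation, strand and depth, nothing is given in the sources used here, and how precise 1 library is cannot be stated.

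Each interferon table stacks a long non-coding part, given per transcript, on a named-gene part. The named-gene part summed to nearly the same in every library, from 988427 (treated KYSE450) to 993533 (untreated KYSE450). The long non-coding part summed to between 50038 (treated KYSE450) and 92837 (untreated KYSE180). How each part was scaled is not stated, so levels may not compare between the parts, which were fitted together. Transcripts were summed per gene identifier. Genes at 1 FPKM or more in 3 or more of 6 libraries (12429) were fitted as log2(FPKM + 1), a scale that understates changes of low genes, with limma 3.58.1 (trend and robust options, statmod 1.5.0, R 4.3.3), with line as a block and treatment as the effect. Adjusted p-values are Benjamini-Hochberg values over all of them. Count-based tests were the other choice in the plan and were not run, since the files hold FPKM. Lines were compared by the same fit, as an F test and 3 contrasts. For 34 of the 41 genes the fit used a spread shared across genes, and for the rest that spread weighed with the gene's own. The fit was also run on simulated data in which every gene had the same spread. That run does not bear on genes with a wider spread of their own, such as LINC00472.

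The libraries of 1 line come from the same cell line, which pairs them. Across genes, the correlation of their deviations from the treatment means was 0.908 (KYSE30), 0.839 (KYSE180) and 0.873 (KYSE450).

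The genes and lists were chosen with earlier results of these data known. Named genes are those called for IFN-β, the 5 with the smallest p in each direction, the 5 highest, for each line the 5 with the largest gap to the next line among those with both libraries above the other 4, genes of the lists, genes at the edge of the rule, and controls. LINC00857, LINC01521, LINC00680, LINC00216, CHD2 and SLC12A2 were named after their values were seen. Neighbours are the nearest protein-coding gene of GENCODE 29 that the named-gene part lists. Alternatives were other scalings, pseudocounts, filters, subsets and left-out lines. The knockdown tables, also FPKM, were normalized separately and hold none of the 41 by identifier.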

Additional observations from a re-analysis of the deposited data

Results flagged for a closer look

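LINC01578 and LINC00842 moved in opposite directions in different lines after IFN-β, by 0.5 or more on the log2(FPKM + 1) scale in each of the lines named here, and the difference between lines was not tested, since each line has 1 pair of libraries. The ratio of LINC01578 was 0.79 in KYSE180 and 1.99 in KYSE450 and -0.52 in KYSE30. The ratio of LINC00842 was 2.36 in KYSE450, where it was listed at 0 untreated and at 4.12 FPKM treated, and -0.67 in KYSE30, where it went from 5.75 to 3.24 FPKM. Its own residual SD was 1.11.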

How the results depend on the processing

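The count of LINC genes called for IFN-β was 1 in the fit as reported, and LINC00472 was that gene. It was 0 with median-of-ratios scaling over all genes, 0 with that scaling over the long non-coding part, and 0 with a pseudocount of 0.1. It was also 0 with no filter on low values and 0 with the long non-coding part fitted alone. Among the 26 genes at 1 FPKM in all 6 libraries it was 0. LINC00472, listed at 0 in treated KYSE180, is not one of the 26, so that setting did not test it again. Leaving out each line gave 0 to 1, with LINC01578 as the gene called without KYSE30. With no replicate block, which drops the pairing by line, the count was 0 (limma, beside 15 of all genes against 237 with the block). The count for line differences was 29 of 41, and became 17 of 41 with scaling over the long non-coding part. It was 17 of 26 at 1 FPKM in all 6 libraries, and 7 of 41 with the long non-coding part fitted alone. The cause of these differences was not tested. The rule itself gave 41 genes, 64 at a minimum of 0.5 FPKM and 26 when all 6 libraries had to reach 1. The IFN-β log2 fold change of LINC00472 was reversed, at 0.39, when its entry in the named-gene part was used, an alternative chosen after seeing the data. Among all genes fitted, 30 were called for IFN-β with no filter on low values, 50 with scaling over all genes, 266 with no robust option, and 0 with the long non-coding part fitted alone. FPKM carry no depth, so no counting error can be given. The comparison of KYSE180 with KYSE30 in the knockdown libraries was not run, because 0 of the 41 could be matched there.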
